A study of Mus musculus with 54 samples.

Results

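The cells described here are mouse blood progenitors that the authors' annotation table predicts to be of the type tMPP4. They were chosen by that column alone and number 149 of 2301 annotated single cells, or 6.475%. Of these, 93 came from unperturbed mice (steady state, 13 libraries) and 56 were recovered from transplanted mice (15 libraries). Steady state cells were sorted through surface-marker gates, and 7 of the 28 annotated gates held tMPP4 cells. Transplanted cells were collected 1, 3, 5 or 7 days after transplantation, or in libraries that mix days 5 and 7 (L77) or days 1 and 3 (L80 and L88), and carry a single gate name, GFPP, in the annotation. All libraries are labelled C57BL/6, 8 to 10 weeks of age. Transplanted tMPP4 cells came from libraries labelled spleen or bone marrow and spleen, and steady state tMPP4 cells from libraries labelled bone marrow or bone marrow and spleen, so organ, gate and transplantation cannot be told apart. Which cells were transplanted, how hosts were prepared and how many mice were used are not given in the sources used here, so p-values measure the spread between libraries. The method behind the type prediction is likewise not given there.

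Multipotent progenitors (MPPs) stand between the self-renewing stem cell and the progenitors committed to single blood lineages. MPP4 is the usual name for the mouse subset that carries the cytokine receptor Flt3 and is biased towards lymphoid fates. Early in that bias, such cells begin to transcribe Dntt, the template-independent DNA polymerase of antigen receptor joints, while they still carry low levels of granulocyte genes. Cd34 is a surface sialomucin of progenitors that long-term mouse stem cells largely lack.

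A tMPP4 cell held 20740 to 956785 counts (median 252397) and a median of 5023 detected genes. Counts were summed over the tMPP4 cells of each library with at least 3 such cells, which left 10 steady state sums (89 cells) and 8 transplanted sums (45 cells) of 416274 to 6674957 counts each. The transplanted sums comprised 1 library of day 1 (3 cells), 1 of day 3 (3 cells), 2 of day 5 (9 cells), 3 of day 7 (19 cells) and 1 of mixed days (11 cells). The library median of counts per cell was 293953 ± 225412 (SD, n = 10) at steady state and 233913 ± 110552 (SD, n = 8) after transplantation, a difference within the spread (two-sided exact permutation test over libraries, p = 0.565, adjusted p = 0.642 over the 2 depth measures). Single-gene levels below are CPM, counts scaled to 1000000 per sum on TMM-scaled library sizes, and summed gene lists and values of other cells are plain CPM.

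Cells of the same library appeared to share some counts, and the cause was not tested. In library L53, splenic T cells were sequenced together with MPP4-gate cells, and 38 of 41 T cells had a Dntt count (59.9 CPM over all of them). In library L2, which holds T cells alone, 1 of 47 had one (0.136 CPM). Flt3 followed the same pattern, at 16.9 CPM in the T cells of L53 and 0.136 CPM in those of L2. Levels in the other cells of a library are therefore given beside the results for Flt3, Dntt, Cd34, Mpo, Elane, Ccl3, Ccl4 and C1qa. The annotation also gives erythroblasts in library L4, which its label does not name.

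At steady state the tMPP4 cells were concentrated in 4 gates. They made up 71% of the LMPP gate (22 of 31 cells, 95% Clopper-Pearson interval 52% to 85.8%), 63.4% of the ST_HSC gate (26 of 41, 46.9% to 77.9%), 35.6% of the HPC3 gate (16 of 45, 21.9% to 51.2%) and 32.1% of the MPP4 gate itself (25 of 78, 21.9% to 43.6%). The HPC2, MPP1 and MPP2 gates added 2, 1 and 1 cells. None of 76 cells of the MPP3 gate was tMPP4, which allows a share of up to 3.95%. These intervals and limits cover counting error only, and the shares were not tested because the prediction may have used the gates. The sorted MPP4 gate and the predicted type thus overlapped in part: 25 of the 93 steady state tMPP4 cells carried the MPP4 gate name, fewer than the 26 of the ST_HSC gate.

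Among transplanted cells the type was rare and uneven between libraries. The mean share per library was 2.56% ± 4.44 on day 1 (SD, n = 3), 3.04% ± 3.13 on day 3 (SD, n = 3), 4.64% ± 5.50 on day 5 (SD, n = 7) and 5.25% ± 7.95 on day 7 (SD, n = 10). No difference between days exceeded the spread between libraries (two-sided exact permutation tests, day 7 against day 5 p = 0.876, day 7 against day 1 p = 0.766, day 5 against day 1 p = 0.575, adjusted p = 0.876 over the 3). On day 7 the libraries ranged from 0% to 22.2%, and L77, which mixes days 5 and 7, held 28.9%.

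**Figure D1:**
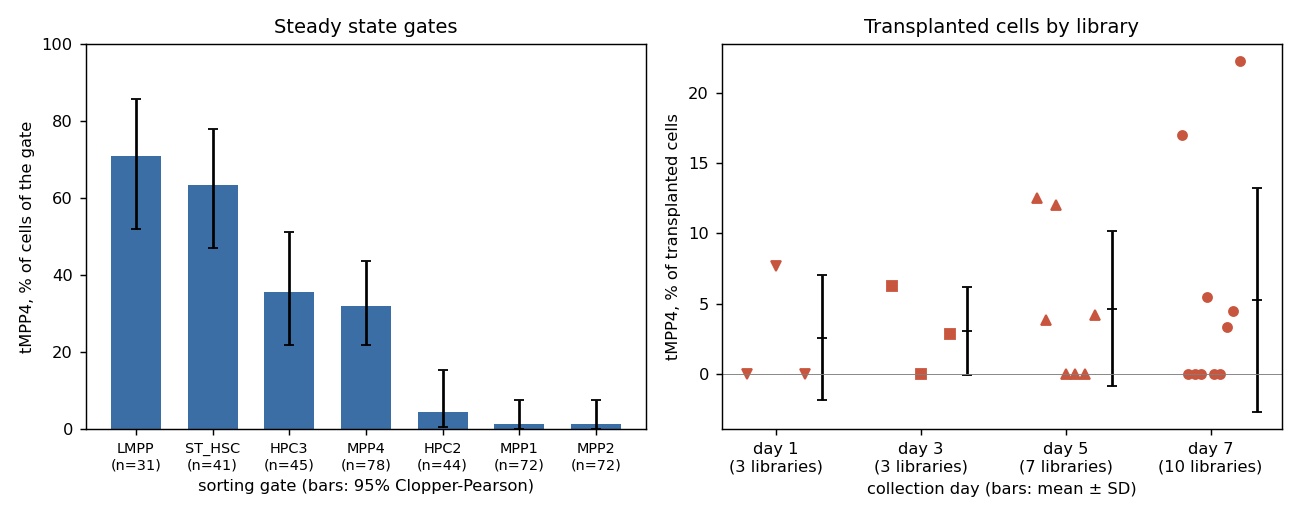
Left, the percentage of the cells of each steady state gate predicted as tMPP4, for the 7 gates with such cells, with 95% Clopper-Pearson intervals and the number of cells in the gate. Right, the percentage of transplanted cells predicted as tMPP4, 1 point per library by collection day, with mean ± SD beside the points; the day 7 libraries run from 0% to 22.2%.

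The 3 genes used as MPP4 markers were lower in transplanted than in steady state tMPP4 cells. Dntt was at 0 in 6 of 8 transplanted sums, while Cd34 was still at 52.5 CPM or more in each. Flt3 (chr5:147330741-147400489, minus strand) had a lowest, median and highest level of 8.11, 408 and 606 CPM in the steady state sums and of 0.364, 30.7 and 86.6 CPM in the transplanted sums. All but 1 of the steady state sums lay above every transplanted sum, and the exception was L14, from the ST_HSC gate. The change was −3.36 ± 0.65 log2 units (transplanted minus steady state, ± SE, edgeR adjusted p = 0.00668).

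Dntt (chr19:41029275-41059525, plus strand) ran from 74.5 through a median of 419 to 2563 CPM at steady state. After transplantation it was 10.3 CPM in L47 of day 7 and 12.7 CPM in L69 of day 5, and 0 in the other 6 sums. The groups did not overlap, and Dntt fell by 7.52 ± 0.86 log2 units (edgeR adjusted p = 2.15e-06). In the transplanted libraries the other cells had at most 2.0 CPM of Dntt, whereas the other cells of the steady state libraries had 10.1 to 654 CPM. In plain CPM, the tMPP4 cells had 168 against 620 in the other cells of L28, and 396 against 10.1 in L26. The part of shared counts in the Dntt difference was not tested.

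Cd34 (chr1:194938819-194961279, plus strand) ran from 268 through 510 to 805 CPM at steady state and from 52.5 through 126 to 251 CPM after transplantation. It too did not overlap between the groups and fell by 1.99 ± 0.29 log2 units (edgeR adjusted p = 0.00015). The other cells of the steady state libraries had 4.97 to 173 CPM of Flt3 and 106 to 501 CPM of Cd34, and in 9 of 10 libraries the tMPP4 cells had more of each. In the transplanted libraries the other cells had 3.46 to 28.1 CPM of Flt3 and 39.4 to 204 CPM of Cd34. These other cells were of any predicted type. Against the other predicted MPP cells alone, steady state tMPP4 cells had more Flt3 in 7 of 9 libraries. Dntt was higher in 6 of the 9 and Cd34 in 7. After transplantation Flt3, Dntt and Cd34 were higher in 5, 2 and 5 of 8 libraries. All 3 calls held when any 1 library was left out. Of 15 other settings Flt3 lost its call in 5 (sums of at least 1, 5 or 10 cells, and day 7 or day 5 alone) and Cd34 in 2 (at least 10 cells, and day 5 alone), and Dntt kept it in 14 of 14. Coordinates are those of GRCm38, the assembly that mm10 denotes.

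Detection in single cells was compared at equal depth. With each cell thinned to 20000 counts, Flt3 was detected in 74.2% of steady state and 26.8% of transplanted tMPP4 cells (86% and 35.7% unthinned), Dntt in 54.8% and 5.36% (73.1% and 8.93% unthinned) and Cd34 in 92.5% and 66.1% (98.9% and 78.6% unthinned). Median depths were 270856 and 214871 counts. Over both T cell libraries, whose cells should lack these genes and had a median of 129938 counts, the thinned shares were 15.9%, 29.5% and 25%. For the T cells of L2 alone they were 0% for Flt3 and Dntt, which allows a share of up to 6.38% of 47 cells, and 8.51% for Cd34, while for those of L53 they were 34.1%, 63.4% and 43.9%. The Dntt share of transplanted tMPP4 cells was thus no higher than background, and the steady state share was below that of the L53 T cells, so detection per cell does not rank Dntt here. The Flt3 share of transplanted tMPP4 cells was likewise below that of the L53 T cells. Because most transplanted tMPP4 sums lack Dntt and hold little Flt3, tMPP4 is used below as the name of the prediction and not as a statement that these cells are MPP4.

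**Figure D2:**
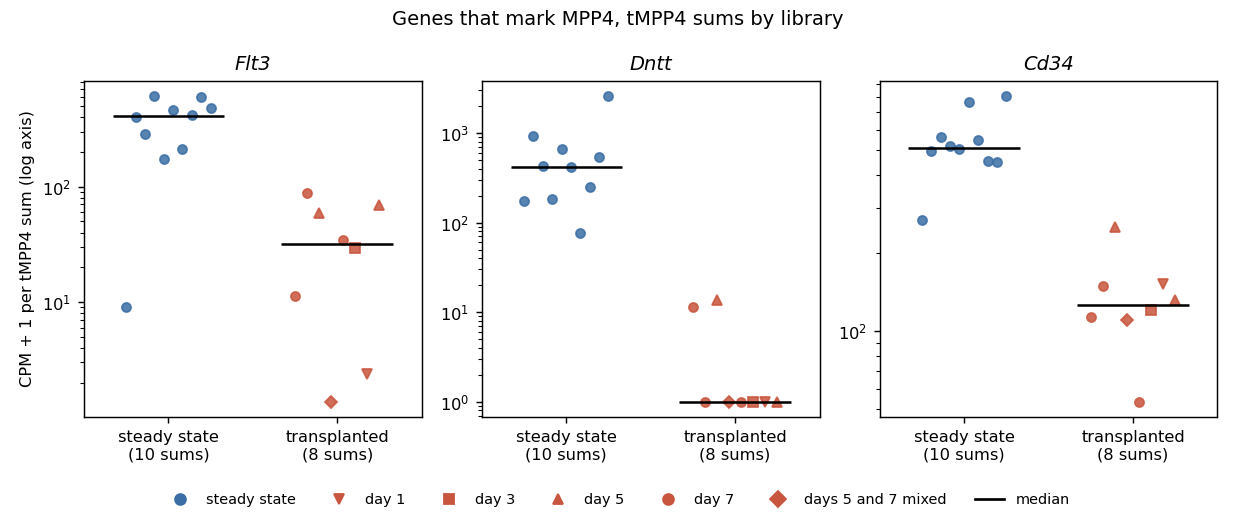
Level of Flt3, Dntt and Cd34 (CPM + 1, log axis) in each tMPP4 sum, 1 point per library, with the median of each origin as a line; symbols give the collection day. For Dntt and Cd34 every transplanted sum lies below every steady state sum, and for Flt3 only the steady state library L14 lies within the transplanted range.

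Within each origin, tMPP4 cells had lower levels of mitosis genes than the other predicted MPP cells of their library as a pool, a trait they shared with tMPP1. This is a description, since the types were predicted from the same cells. In the 9 steady state libraries with at least 3 cells of both kinds, 119 of 6475 genes at 20 CPM or more (1.84%) were lower in tMPP4 than in the other tMPP cells in every library, and 21 (0.324%) were higher. In the 8 transplanted libraries 175 of 6683 genes (2.62%) were lower in every library and 18 (0.269%) were higher.

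The list of G2/M and mitosis genes made up 22 of the 119 and 16 of the 175. Its median within-library difference was −3.04 log2 units at steady state, against −0.10 over all genes, and −3.64 after transplantation, against −0.22, with 26 of 26 members below 0 in both origins. Ube2c, the ubiquitin-conjugating enzyme of the anaphase-promoting complex, had 60.9 ± 51.7 CPM in steady state tMPP4 and 718 ± 252 CPM in the other tMPP cells (SD, n = 9). After transplantation it had 8.10 ± 8.03 and 138 ± 101 CPM (SD, n = 8). Prc1 and Cdkn3, a spindle midzone protein and a phosphatase of cyclin-dependent kinases, also ranked among the 12 lowest in both origins.

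Genes of DNA replication had a median difference of 0.11 log2 units at steady state, against −0.10 over all genes, with 13 of 24 members above 0. After transplantation the list was lower, at −0.45 against −0.22 over all genes, with 25 of 26 members below 0. Summed G2/M levels placed tMPP4 beside tMPP1: 1114 ± 628 CPM in steady state tMPP4 (SD, n = 10) and 394 ± 100 CPM in tMPP1 (SD, n = 6), but 4721 ± 1135 CPM in tMPP3 (SD, n = 5), 6245 ± 1827 CPM in tMPP2 (SD, n = 10) and 8252 ± 2381 CPM in tMPP5 (SD, n = 6). After transplantation tMPP4 had 565 ± 300 CPM (SD, n = 8), tMPP1 744 ± 453 CPM (SD, n = 15), and tMPP5 4094 ± 1085 CPM (SD, n = 19). The tMPP4 and tMPP1 sums overlapped in both origins.

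**Figure D3:**
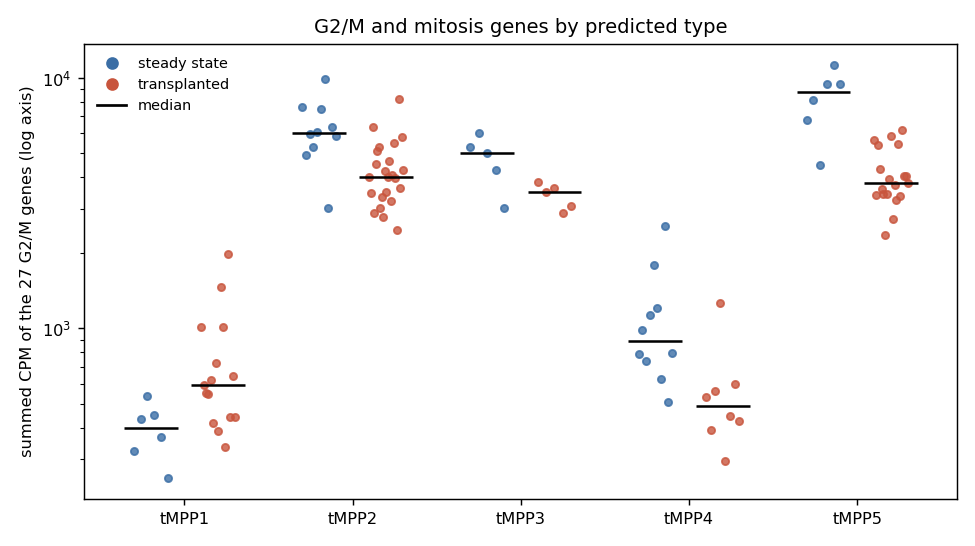
Summed level of the 27 G2/M and mitosis genes (CPM, log axis) in each library sum of at least 3 cells, by predicted type and origin, with medians as lines. The tMPP4 and tMPP1 sums lie at 252 to 2566 CPM, and those of tMPP2, tMPP3 and tMPP5 at 2344 to 11258 CPM.

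By its Flt3 and Dntt levels tMPP4 stood beside tMPP5, not tMPP1. Steady state Flt3 averaged 375 CPM in tMPP4 and 275 CPM in tMPP5 but 60.6 CPM in tMPP1, on a scaling over the sums of all tMPP types. Dntt averaged 654, 827 and 17.1 CPM in the same order. Steady state tMPP4 cells also had more Ly6a (Sca-1, the surface antigen that defines the stem and progenitor gate) than the other tMPP cells of their library in 9 of 9 libraries, with a median difference of 1.71 log2 units. Il12a, a cytokine subunit, and Neurl3, a ubiquitin ligase, were higher in 9 of 9 as well, by medians of 1.26 and 2.12. Mpo (myeloperoxidase of primary granules) was lower in 8 of 9, by a median of 1.39 log2 units (527 ± 361 against 2275 ± 2119 CPM, SD, n = 9). This difference is against the other types pooled. The summed neutrophil and granulocyte-monocyte list averaged 37015 CPM in steady state tMPP3 and 8842 CPM in tMPP4. It averaged 7426 CPM in tMPP5, 3564 CPM in tMPP2 and 1904 CPM in tMPP1.

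After transplantation the genes that ranked highest in tMPP4 were others. Lsp1, a leukocyte actin-binding protein, was higher in 8 of 8 libraries by a median of 1.48 log2 units, Ctss, the lysosomal protease cathepsin S, by 1.35, Selplg, the ligand of P-selectin, by 0.98, and Cd27, a receptor of the TNF family found on lymphoid-biased progenitors, by 0.65. Lsp1 and Cd27 belong to the MPP4 and lymphoid priming list, which was split, with 7 of 13 members above 0 and 6 below. Its median was 0.20 log2 units, against −0.22 over all genes. At steady state Cd27 was lower in 6 of 9 libraries. Ctss belongs to the monocyte and macrophage list, with 10 of 12 members below 0 after transplantation (median −0.50). Selplg belongs to the homing and niche adhesion list, with 9 of 14 members below 0 (median −0.18). Sdpr was among the 12 lowest after transplantation, with 0.666 ± 1.01 CPM against 53.6 ± 82.8 CPM (SD, n = 8). All 16 megakaryocyte genes at 20 CPM or more had a median difference below 0 (list median −2.51), as did 5 of 5 erythroid genes (−1.82) and 10 of 10 cholesterol synthesis genes (−0.61). These differences are against the other types pooled: the summed megakaryocyte list averaged 590 CPM in tMPP4, 493 CPM in tMPP5, 312 CPM in tMPP3, 746 CPM in tMPP1 and 2125 CPM in tMPP2, and the erythroid list 753 CPM in tMPP4, 822 CPM in tMPP5 and 420 CPM in tMPP3. The cholesterol synthesis list averaged 338 CPM in tMPP4, 310 in tMPP5, 363 in tMPP1, 419 in tMPP2 and 510 in tMPP3. At steady state the megakaryocyte list had a median of −0.06 (4 of 8 below 0).

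Between origins, transplanted tMPP4 cells had less of several lymphoid-priming and granule transcripts and more Ly6a and interferon-inducible transcripts. The calls of Ly6a, Ifitm3, Igtp and Iigp1 were lost without the day 5 library L86, whose sum holds 3 cells. With steady state cells of the MPP4 and LMPP gates alone, these calls and those of Elane, Prtn3, Ccl9 and Satb1 were lost. Of 7537 genes tested, 37 (0.491%) passed an edgeR quasi-likelihood test at an adjusted p under 0.05: 9 rose (0.119%) and 28 fell (0.372%). The spread between sums was wide, with a common biological coefficient of variation of 1.02, and 567 genes had an unadjusted p under 0.05. Levels did not overlap between the groups for 7 genes (0.0929% of those tested), 5 of them among the 37: Dntt, Mpo, Erdr1, Cd34 and Ramp1. Over all tested genes the median change was −0.10 log2 units and 44.0% of changes were above 0.

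**Figure D4:**
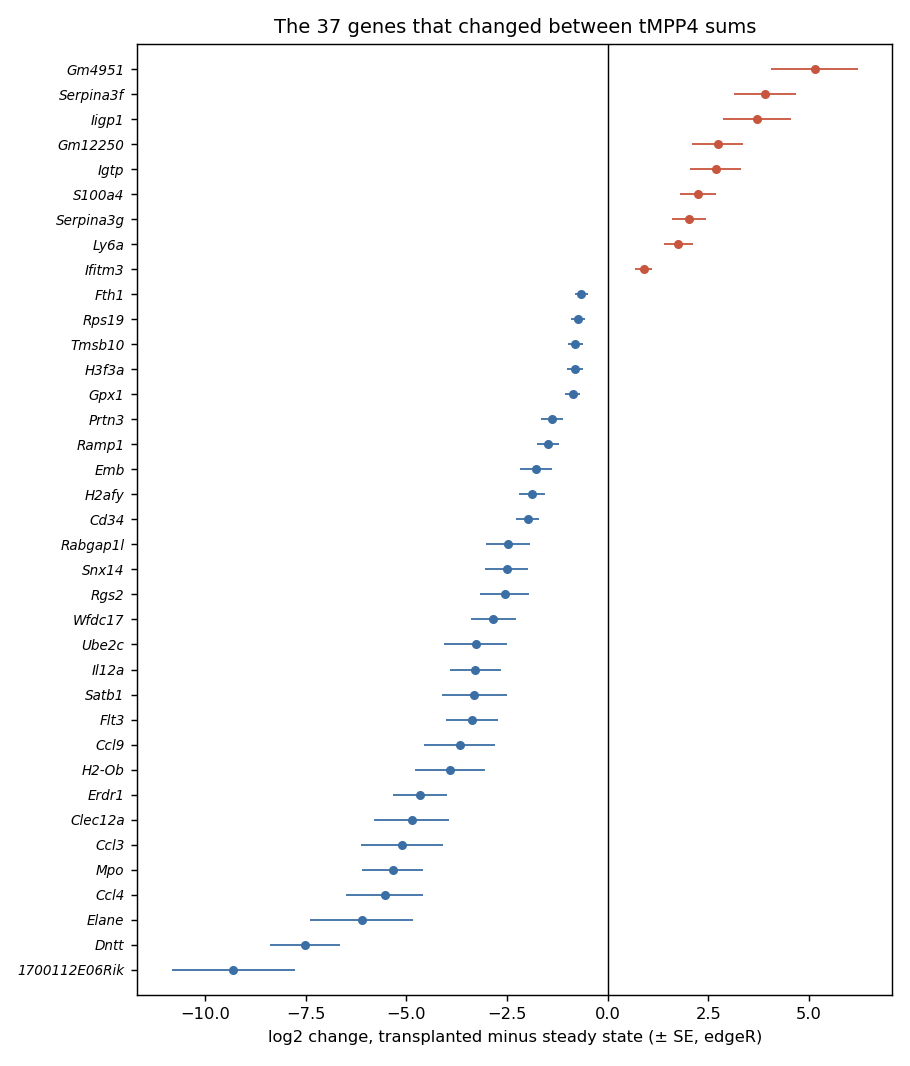
Change of the 37 genes that passed the test between tMPP4 sums (log2 units, transplanted minus steady state, ± SE from edgeR; orange rose, blue fell). The 9 higher genes run from 0.89 for Ifitm3 to 5.13 for Gm4951; the value of 1700112E06Rik, at 0 in all 8 transplanted sums, depends on the prior count of the fit.

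Of the 15 tested genes of the MPP4 and lymphoid priming list, 5 fell and none rose, with a list median of −0.56. Besides Flt3 and Dntt these were Satb1, Il12a and Wfdc17. Satb1, a chromatin organiser needed in early lymphoid progenitors, ran from 32.7 through 143 to 415 CPM at steady state and from 0 through 6.81 to 83.1 CPM after transplantation (−3.31 ± 0.80, edgeR adjusted p = 0.045). The call held in 3 of the 18 fits that each left out 1 library. Il12a ran from 39.8 through 208 to 1102 CPM and from 1.35 through 25.6 to 72.2 CPM (−3.28 ± 0.63, edgeR adjusted p = 0.00668). Wfdc17, a small secreted antiprotease, ran from 23.1 through 818 to 2542 CPM and from 10.8 through 89.9 to 550 CPM (−2.84 ± 0.56, edgeR adjusted p = 0.00697). Summed over its 23 members in the table, the list had 1067 to 7112 CPM at steady state and 1114 to 2114 CPM after transplantation. Of these members 3 were at 0 in every transplanted sum and 2 in every steady state sum.

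Granule genes fell in the same comparison. On the neutrophil and granulocyte-monocyte list 4 of 18 tested genes fell and none rose, with a median of −1.31. Mpo ran from 112 through 487 to 1331 CPM at steady state and from 0 through 2.03 to 85.9 CPM after transplantation, without overlap (−5.33 ± 0.76, edgeR adjusted p = 0.000144). Prtn3, proteinase 3 of the same granules, ran from 430 through 758 to 1591 CPM and from 174 through 338 to 436 CPM (−1.39 ± 0.27, edgeR adjusted p = 0.00697). Elane, neutrophil elastase, was at 0 in 6 of 8 transplanted sums and 24.3 CPM in L47, and ran from 0 through 98.2 to 1205 CPM at steady state (−6.11 ± 1.28, edgeR adjusted p = 0.0138). Ccl9, a chemokine of myeloid cells, was the other member that fell (−3.67 ± 0.88, edgeR adjusted p = 0.0417), a call that held in 3 of 18 fits that each left out 1 library and was lost with DESeq2.

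The Elane level of steady state tMPP4 cells moved with that of their library. In the 7 libraries whose other cells had 117 to 4988 CPM of Elane, all 61 tMPP4 cells had an Elane count and the tMPP4 sums had 47.8 to 1127 CPM. In the other 3 libraries, whose other cells had at most 10.2 CPM, 2 of 28 tMPP4 cells had a count and the sums had at most 0.397 CPM. The part of such shared counts in the Elane difference was not tested. Mpo in the tMPP4 cells of these 3 libraries was 271 CPM in L14, 371 CPM in L50 and 85.8 CPM in L53, with 139, 401 and 76 CPM in the other cells of the same libraries. The T cells of L53 had 6.64 CPM. In 7 of the 10 steady state libraries the other cells had more Mpo than the tMPP4 cells, and the part of shared counts in the Mpo difference was not tested either. Without the ST_HSC-gate cells 34 genes passed, and with steady state cells of the MPP4 and LMPP gates alone 29 did; Elane, Prtn3, Satb1 and Ccl9 were not among the latter, and Mpo, Dntt, Flt3 and Cd34 were.

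The inflammatory chemokines Ccl3 and Ccl4, encoded side by side on chromosome 11, fell as well. Ccl4 ran from 4.43 through 261 to 2837 CPM at steady state and from 0 through 3.64 to 51 CPM after transplantation (−5.53 ± 0.95, edgeR adjusted p = 0.00177). Ccl3 ran from 3.20 through 74 to 1484 CPM and from 0 through 1.09 to 60.03 CPM (−5.11 ± 1.01, edgeR adjusted p = 0.00697). Both were lowest at steady state in L14, whose values lie within the transplanted range. The other cells of the steady state libraries had 1.90 to 344 CPM of Ccl3 and 4.08 to 446 CPM of Ccl4, and the tMPP4 cells had more in 8 of 10 libraries for each gene. The part of shared counts in these differences was not tested.

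Other genes that fell included Clec12a (an inhibitory lectin of myeloid cells, −4.87 ± 0.94), H2-Ob (a chain of the MHC class II modulator DO, −3.92 ± 0.87), Ramp1 (a subunit of the CGRP receptor, −1.49 ± 0.27), H2afy (the histone variant macroH2A1, −1.89 ± 0.32), Emb (embigin, −1.77 ± 0.40) and Rgs2 (a regulator of G-protein signalling, −2.56 ± 0.61). Ramp1 did not overlap between the groups, at 487 to 1101 CPM and 97.3 to 429 CPM. The calls of Rgs2, Emb and H2-Ob held in 8, 14 and 15 of the 18 fits that each left out 1 library. Those of Clec12a, Ramp1 and H2afy held in all 18. The transcript 1700112E06Rik had 687 counts in the steady state sums and none in the transplanted sums, which makes it at least 102-fold lower (against a floor of 3 counts over the group). Erdr1, Rabgap1l and Snx14 fell by 4.66, 2.48 and 2.51 log2 units, calls that held in 18, 14 and 17 of these 18 fits. Gpx1, H3f3a, Tmsb10, Rps19 and Fth1 fell by 0.66 to 0.87 log2 units; near-identical copies of such genes can share reads, and these 5 calls are uncertain.

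Ly6a ran from 208 through 293 to 930 CPM at steady state and from 416 through 888 to 4692 CPM after transplantation. The groups overlapped, and Ly6a rose by 1.76 ± 0.35 log2 units (edgeR adjusted p = 0.00877). The same direction was seen for S100a4, a calcium-binding protein of motile cells, at 15.8 through 62.2 to 138 CPM and 96.2 through 313 to 656 CPM (2.24 ± 0.45, edgeR adjusted p = 0.00888). Serpina3g and Serpina3f, serine protease inhibitors encoded next to each other on chromosome 12, rose by 2.02 ± 0.43 and 3.90 ± 0.76; their sequences are close enough that reads may be split between them.

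Of the 22 tested interferon response genes 3 rose (Ifitm3, Igtp and Iigp1) and none fell, and 21 of 22 changes were above 0, with a median of 1.37. Ifitm3, a membrane protein that restricts virus entry, ran from 819 through 1700 to 2920 CPM and from 1958 through 2831 to 5136 CPM (0.89 ± 0.21, edgeR adjusted p = 0.0417). Igtp, an interferon-inducible GTPase, ran from 1.87 through 18.9 to 87 CPM and from 35.3 through 122 to 944 CPM (2.68 ± 0.64, edgeR adjusted p = 0.0417). Iigp1, of the same GTPase family, ran from 0 through 8.19 to 38.4 CPM and from 11.6 through 83.7 to 697 CPM (3.70 ± 0.84, edgeR adjusted p = 0.0252). In all 3 the day 5 library L86 was the highest sum. The calls of Ifitm3 and Igtp held in 6 and 9 of the 18 fits that each left out 1 library. Without L86, 7 of the 9 higher genes no longer passed: Ly6a then had a change of 1.09 (edgeR adjusted p = 0.121), Ifitm3 0.75 (0.165), Igtp 1.63 (0.507), Iigp1 2.86 (0.222) and Serpina3g 1.65 (0.0812), and Gm12250 and Gm4951 were the other 2. S100a4 and Serpina3f still passed. With steady state cells of the MPP4 and LMPP gates alone (5 sums) Ly6a changed by 1.57 (edgeR adjusted p = 0.198), Iigp1 by 3.88 (0.084), Igtp by 3.02 (0.132) and Ifitm3 by 0.95 (0.0869), none of which passed, though the last 3 changes were at least as large as with all gates. Gm12250 and Gm4951 did not pass either.

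The 9 genes that rose together had promoters for 6 of them in the RefSeq table (GRCm38.p6, 250 bases before to 50 after the start). The core of an interferon-stimulated response element, taken as 2 copies of GAAA parted by any 2 bases, was searched on both strands, and no other motif was searched. It was present in 3 of the 6, against 3.44% of all 32851 promoters in the table (3.99% of 27025 genes). The 9 genes include interferon-inducible ones, so this share is no independent test. The 3 promoters are shown because they carry the motif, in capitals, as read on the gene's strand; a match is a description of the sequence and not evidence of binding.
Ifitm3, chr7:141010695-141010994, minus strand: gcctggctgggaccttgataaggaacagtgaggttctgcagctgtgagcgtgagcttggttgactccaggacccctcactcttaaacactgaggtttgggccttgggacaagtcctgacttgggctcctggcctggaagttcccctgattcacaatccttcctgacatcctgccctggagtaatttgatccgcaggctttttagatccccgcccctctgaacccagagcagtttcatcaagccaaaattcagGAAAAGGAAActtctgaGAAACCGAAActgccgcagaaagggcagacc
Igtp, chr11:58199306-58199605, plus strand: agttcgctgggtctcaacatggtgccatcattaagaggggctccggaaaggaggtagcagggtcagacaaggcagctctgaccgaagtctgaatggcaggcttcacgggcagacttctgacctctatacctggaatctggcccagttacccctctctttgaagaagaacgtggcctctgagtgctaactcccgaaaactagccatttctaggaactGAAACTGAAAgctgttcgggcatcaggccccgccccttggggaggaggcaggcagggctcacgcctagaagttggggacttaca
Gm12250, chr11:58183593-58183892, plus strand: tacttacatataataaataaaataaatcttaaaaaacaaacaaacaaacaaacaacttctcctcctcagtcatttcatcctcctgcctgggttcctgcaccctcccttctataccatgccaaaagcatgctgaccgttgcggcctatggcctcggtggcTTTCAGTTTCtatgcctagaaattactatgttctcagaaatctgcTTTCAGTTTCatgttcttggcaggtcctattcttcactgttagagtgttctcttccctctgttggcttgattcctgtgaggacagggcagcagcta
Ifitm3 and Gm12250 hold 2 matches each and Igtp 1, in Gm12250 on the opposite strand. Gm12250, which lies just before Igtp on chromosome 11, ran from 1.91 through 34.4 to 64.0 CPM at steady state and from 1.46 through 161 to 717 CPM after transplantation (2.73 ± 0.62, edgeR adjusted p = 0.0276). In S100a4, Serpina3f and Serpina3g these letters were not in the window. Without L86, Ifitm3, Igtp and Gm12250 no longer passed the test between origins, while S100a4 and Serpina3f did.

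**Figure D5:**
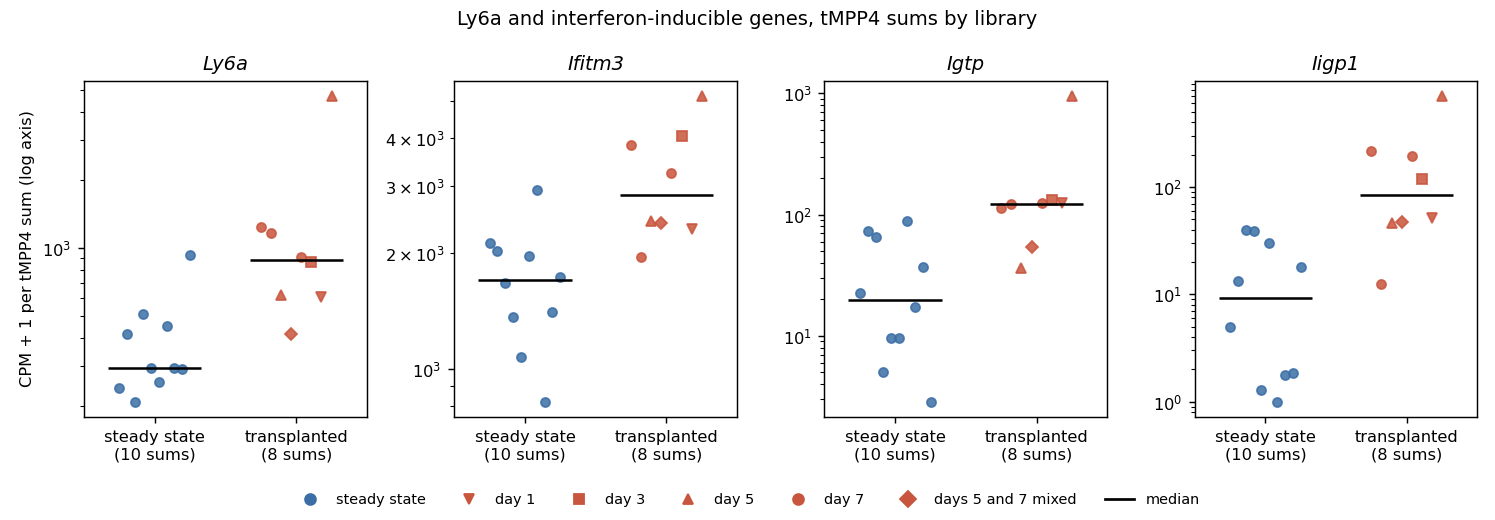
Level of Ly6a, Ifitm3, Igtp and Iigp1 (CPM + 1, log axis) in each tMPP4 sum, 1 point per library, with the median of each origin as a line; symbols give the collection day. The day 5 library L86 is the highest sum in each panel, at 4692 CPM for Ly6a and 944 CPM for Igtp.

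On the HSC identity list the 2 genes that rose, of 15 tested, were Ly6a and Ifitm3, and 13 of 15 changes were above 0 (median 0.89). Of the multipotent progenitor list Cd34 alone passed among 20 (median −0.28); Kit had 173 ± 88 CPM at steady state (SD, n = 10) and 63.6 ± 39 CPM after transplantation (SD, n = 8) and did not pass (edgeR adjusted p = 0.216). Ube2c was the single one of 24 G2/M genes to pass (−3.27 ± 0.78, edgeR adjusted p = 0.0417; held in 7 of 18 fits that each left out 1 library), and 22 of 24 changes were below 0 (median −1.22). On the list of dendritic cell and antigen presentation genes Flt3 alone passed among 9 (median 0.17).

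No gene passed on 16 further lists. Their medians were 0.05 for DNA replication (25 tested), 0.28 for ribosome biogenesis (24), 0.04 for oxidative phosphorylation (27), 0.23 for glycolysis (17), −0.29 for cholesterol synthesis (15), −0.68 for cell cycle brakes (10), 0.29 for immediate early genes (14), 0.14 for p53 targets (9) and 0.31 for homing and niche adhesion (13). Of markers of other blood and stromal cells few were tested: 8 megakaryocyte genes (median 0.63), 4 erythroid (−0.69), 3 of mast cells and basophils (−1.44), 3 stromal or endothelial (0.47), 2 of T cells (0.04), 2 of NK cells (0.85) and 1 of B cells (−1.29). The summed B cell list had at most 214 CPM at steady state and 97.8 CPM after transplantation, and the T cell list at most 152 and 94.8 CPM. Of the 12 members of each, 8 and 4 were at 0 in every transplanted sum, and 2 and 0 in every steady state sum. The NK cell list went the other way in 1 library: it reached 1766 CPM in L78 after transplantation, against 161 to 554 CPM in the other 7 transplanted sums and 126 to 759 CPM at steady state. Ccl5, a chemokine of NK and T cells on that list, had 784 CPM in L78 and 436 CPM in L86, and its part in the results was not tested.

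Macrophage markers were high in 2 transplanted sums. Summed over 20 genes, the monocyte and macrophage list had 3439 CPM in L84 of day 1 and 3411 CPM in L79 of day 3, against 191 to 1022 CPM in the other 6 transplanted sums and 332 to 1080 CPM at steady state. C1qa, a complement subunit made by tissue macrophages, had 417 CPM in L84 and 493 CPM in L79, carried by 2 of 3 and 1 of 3 tMPP4 cells. The other cells of these libraries had 125 and 108 CPM. In L84 the list of dendritic cell and antigen presentation genes also had its highest sum, 4483 CPM, and Adgre1 was at 0. The part of macrophage transcripts in the differences between origins was not tested. C1qa was at most 2.08 CPM in the other transplanted sums and reached 108 CPM in L26 at steady state. The 4 tested genes of the list had a median of 0.59 and none passed. Without the day 1 and day 3 libraries 29 genes passed (9 rose, 20 fell), of which 20 were among the 37; Ly6a, Dntt, Mpo, Flt3 and Cd34 were among them, and Ifitm3, Igtp, S100a4, Elane, Prtn3 and Satb1 were not.

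Whether these differences were particular to tMPP4 was tested as an interaction, with the other tMPP cells of the same 17 libraries as the comparison and the library as a block. None of 12625 genes passed (0%; 642 had an unadjusted p under 0.05, and the smallest edgeR adjusted p was 0.600; DESeq2 called 87). For Flt3 the origin difference in tMPP4 departed from that in the other types by −0.33 ± 0.92 log2 units, for Dntt by 0.98 ± 1.11, for Cd34 by −0.30 ± 0.36, for Mpo by 0.00 ± 0.27 and for Ly6a by −0.98 ± 0.41 (edgeR adjusted p 0.926 or above in each). The SEs are wide, and a p above the threshold does not show that the types responded alike.

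The levels in the other types ran the same way. In tMPP5, the other type with high Dntt at steady state, Dntt averaged 827 ± 465 CPM at steady state (SD, n = 6) and 2.88 ± 5.34 CPM after transplantation (SD, n = 19), and Flt3 275 ± 136 and 29.1 ± 40.5 CPM. Ly6a averaged 172 and 576 CPM in tMPP5, 256 and 1002 CPM in tMPP1, 58.3 and 253 CPM in tMPP2 and 406 and 1343 CPM in tMPP4. The summed interferon list averaged 2691 ± 722 CPM in steady state tMPP4 (SD, n = 10) and 6868 ± 4762 CPM in transplanted tMPP4 (SD, n = 8), and 2985 ± 626 and 5878 ± 2303 CPM in tMPP1 (SD, n = 6 and 15). The genes with the smallest interaction p included Arl6ip1, Lgals1 and Lat. Lgals1, the lectin galectin-1, had 389 ± 137 CPM in tMPP4 against 694 ± 450 CPM in the other types at steady state and 674 ± 222 against 407 ± 124 CPM after transplantation (edgeR adjusted p = 0.600).

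Between day 7 (3 sums) and day 5 (2 sums) none of 10865 genes passed in transplanted tMPP4 cells (0%; 500 had an unadjusted p under 0.05, the smallest edgeR adjusted p was 0.931, and DESeq2 called 14). Flt3 had 9.67, 82.5 and 32.9 CPM in the day 7 sums and 55.8 and 63.1 CPM in the day 5 sums, which overlapped. Cd34 had 105, 142 and 52.1 CPM on day 7 and 242 and 121 CPM on day 5. Rgs2 had 2.64, 50.9 and 37.1 CPM on day 7 and 352 and 243 CPM on day 5, and Ngp, a neutrophil granule protein, had 639, 461 and 165 CPM and was at 0 in both day 5 sums, but neither difference passed (edgeR adjusted p = 0.931). With 2 and 3 sums a gene has to differ by a large fold to pass this test.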

How the data were processed

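Single cells were profiled by a modified Smart-seq2 protocol that reads 3' ends, per the labels' protocols. TopHat, HTSeq and mm10 appear in the submitters' processing notes, with no versions given there. The authors deposited one table of gene counts (23154 genes, 2879 cells, 54 libraries) and an annotation of 2301 of the cells; the other 578 were not used. Whether a count is a read or a molecule, and how doublets were treated, is not given in the sources used here; no doublet caller was run, and no cell name occurred in more than 1 library. Counts of the tMPP4 cells of a library (at least 3) were summed and tested with edgeR 4.0.16 (filterByExpr, TMM, quasi-likelihood, Benjamini-Hochberg over all genes tested, threshold 0.05). Libraries are the replicates. Interaction sums pair tMPP4 with all other tMPP cells of a library. The comparison with other types used log2(CPM + 1) differences within libraries. Shares and depth were compared with exact permutation tests in scipy 1.17.1. Thinning drew 20000 counts per cell. Alternatives used DESeq2 1.42.0 and limma 3.58.1. The scripts were tested on simulated counts. Named genes were Flt3, Dntt and Cd34, the 12 with the largest called change each way that had a count in most sums of the higher group (6 by smallest p where fewer than 6 were called), and up to 3 called members of each of 24 gene lists, or 2 abundant ones as values. Against other types they were the 12 each way with the largest median difference, at 20 CPM or more and of 1 sign in every library. Predicted transcripts and ribosomal protein genes were left out of the ranking. Called genes outside this rule were named after their values were seen. The members and the lists were chosen with earlier results of these data known.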

Additional observations from a re-analysis of the deposited data

Results flagged for a closer look

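Library L86, of day 5, stood above the other transplanted tMPP4 sums in Ly6a (4692 CPM, the others 416 to 1237 CPM) and in Igtp (944 CPM, the others 35.3 to 132 CPM). Its sum holds 3 tMPP4 cells. The other cells of L86 had 1638 CPM of Ly6a.

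Library L47, of day 7, had 24.3 CPM of Elane where the other transplanted sums had at most 2.18 CPM. The other cells of L47 had 18 CPM, and 89.7% of them had an Elane count.

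Library L14, from the ST_HSC gate, had 8.11 CPM of Flt3 where the other steady state sums had 174 to 606 CPM. Its 17 tMPP4 cells had 173 CPM of Dntt and 268 CPM of Cd34. The other cells of L14 had 72 CPM of Flt3, 360 CPM of Cd34 and 27 CPM of Dntt. On the same unscaled basis its tMPP4 cells had 7.36, 243 and 157 CPM, so less Flt3 and Cd34 and more Dntt. Without L14, 36 genes passed between origins.

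These 4 came from 46 groups of values examined for a single distant sum, of which chance alone flags about 1 in 20.

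T cells of library L53, which are in none of the comparisons, had 59.9 CPM of Dntt, 16.9 CPM of Flt3 and 21.5 CPM of Cd34, against 0.136, 0.136 and 2.04 CPM in the T cells of L2. The MPP4-gate cells of L53 predicted as tMPP4 had 1963 CPM of Dntt on the same unscaled basis.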

How the results depend on the processing

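The count of 37 genes between origins depended on the fit. It was 156 with DESeq2, 405 without a filter on low counts (74.8% of them higher, against 24.3% with the filter), 819 with all tMPP types in one fit (46.3% higher), 75 with limma on mean log2 CPM per cell (42.7% higher), 21 with thinned cells (2234 genes tested) and 12 with at least 5 cells per sum. It was 196 with at least 10 cells, where 1 transplanted sum is assumed to vary like the 3 steady state sums. With transplanted sums of day 7 alone it was 9, and of day 5 alone 8 (62.5% higher). Leaving out each library in turn gave 23 (without L16) to 43 genes. In those fits 17 of the 37 calls held in every one that tested the gene. Of the 37 genes 36 kept their direction in every fit; Gm12250 changed by −5.22 with at least 10 cells.

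The interaction gave 87 genes with DESeq2, 3 without a filter and 0 without the replicate block; leaving out each library gave 0 to 1 (1 without L50). The comparison of days gave 14 with DESeq2 and 15 without a filter. The day 7 minus day 5 share changed sign without L70, L71, L72, L47 or L78 (−1.28 to 1.91 percentage points over all libraries left out), and the day 5 minus day 1 share was −0.511 points with at least 10 cells per library. Counts per cell were 40638.1 higher after transplantation with at least 5 cells. With at least 5 cells, 58 genes were higher in every steady state pair, and 377 higher and 830 lower in every one of the 4 transplanted pairs.

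No paired analysis was possible for the origin comparison because no library holds tMPP4 cells of both origins. Leaving out libraries labelled with both kinds of cells, or gates outside the iMPP set, left the same cells. Depth limits genes near the filter.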
